A study of Homo sapiens with 9 samples.

Results

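Interferon-stimulated genes are genes whose transcription rises when a cell responds to interferon. A fixed list of 45 of them was followed here in H358, an established human non-small cell lung carcinoma line. The 45 genes were taken by symbol from 58237 annotated genes (GENCODE 29), and DDX58 in that annotation is the gene now called RIGI. All 45 passed the filter on low counts and were among the 18205 genes tested. Total RNA was sequenced from 3 libraries of parental H358, 3 of H358 in which CRISPR had knocked out SMARCA4 (the BRG1 gene) and 3 in which it had knocked out SMARCA2 (the BRM gene). Each SWI/SNF chromatin remodelling complex contains either BRG1 or BRM as its ATPase, and the design asks what the loss of each does to expression. All cells grew in RPMI with fetal bovine serum, and the labels name no interferon treatment, guide, clone or pool, and no control cells other than the parental line. A difference between a knockout and the parental line can therefore not be told apart from a difference between the cell isolates, and a p-value here reflects only how much libraries of 1 genotype vary. Gene positions given below are those of GENCODE 29 on GRCh38.

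Interferons are secreted proteins that bind cell surface receptors, and those of types I and III activate the kinases JAK1 and TYK2. Type I and type III interferons assemble a complex called ISGF3, which includes STAT2 and IRF9 and binds the interferon-stimulated response element, while type II interferon acts mainly through the gamma-activated site. The genes they turn on encode RNA sensors, enzymes that degrade or modify viral RNA and nucleotides, membrane proteins that block viral entry, and the ubiquitin-like protein ISG15 with its conjugation enzymes. Many are also transcribed at a low level without added interferon, and many carcinoma lines keep such a baseline.

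The libraries held 31964385 to 40673480 reads assigned to genes. SMARCA4 stood at 244, 216 and 212 CPM (a gene's share of the reads, scaled to a common library size) in the parental libraries, at 23.9, 21.1 and 23.6 in the BRG1 knockout and at 239.8, 245 and 249 in the BRM knockout. SMARCA2 stood at 49.3, 58 and 55.5 CPM in parental libraries, at 42.4, 32.02 and 61.2 in the BRG1 knockout and at 10.3, 12.01 and 9.36 in the BRM knockout, so that each targeted transcript was low in the libraries labelled as its knockout. Epithelial markers (10 genes, summed) lay at 6999 to 7344 CPM in parental libraries, 447 to 1380 in the BRG1 knockout and 7037 to 8130 in the BRM knockout. With BRG1 loss 9 of 10 fell, and with BRM loss 1 rose and 0 fell. Fibroblast markers (9 genes) summed to 32.5 to 63.5, 397 to 1034 and 82.8 to 127 CPM. Of 7 tested, 5 rose in the BRG1 knockout, and 1 rose and 1 fell in the BRM knockout. Endothelial markers (6 genes) summed to 5.30 to 9.86, 4.76 to 5.06 and 48.3 to 75.6 CPM. Of 5 tested, 0 were called with BRG1 loss and 2 rose with BRM loss. Over all genes tested, 21.6% rose and 21.9% fell with BRG1 loss, and 21.0% and 16.4% with BRM loss. Blood cell markers (12 genes) summed to 16.1 to 22.3, 9.99 to 13.4 and 17.8 to 58.2 CPM, with CD3D, MS4A1, NKG7, CLEC4C and LILRA4, markers of T cells, B cells, natural killer cells and plasmacytoid dendritic cells, at 0 reads in all 9 libraries. These shifts move with the genotypes compared below, and their part in the results was not tested. In bulk RNA, fewer cells that express a gene and less RNA per cell cannot be told apart.

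The upstream sequence of 6 genes is shown because they stand for the patterns described below: OAS3 and DDX60 fell in the BRG1 knockout, ISG15 fell in the BRG1 knockout and rose in the BRM knockout, IFI44L rose in the BRM knockout, IFITM3 rose in the BRG1 knockout, and IRF9 rose in both. Each line gives the 250 bases upstream of the RefSeq start, which can lie inside the GENCODE 29 span of the gene, read 5′ to 3′ on the gene's strand, as listed by RefSeq (GRCh38.p14). Capitals mark every match, on either strand, of the response element core (GAAA, any 2 bases, GAAA) or of the gamma-activated site (TTC, any 3 bases, GAA).
OAS3, chr12:112938224-112938473, plus strand: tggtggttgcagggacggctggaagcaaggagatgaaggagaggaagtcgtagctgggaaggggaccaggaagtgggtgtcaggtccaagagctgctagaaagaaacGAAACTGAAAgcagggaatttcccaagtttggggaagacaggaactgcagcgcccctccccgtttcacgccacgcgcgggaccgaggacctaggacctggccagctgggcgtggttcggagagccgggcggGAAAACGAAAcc
DDX60, chr4:168318753-168319002, minus strand: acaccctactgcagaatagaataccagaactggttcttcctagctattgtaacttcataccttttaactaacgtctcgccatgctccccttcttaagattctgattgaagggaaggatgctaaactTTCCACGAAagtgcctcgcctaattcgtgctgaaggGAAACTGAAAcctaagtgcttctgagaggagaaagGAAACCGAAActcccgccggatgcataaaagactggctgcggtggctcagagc
ISG15, chr1:1013247-1013496, plus strand: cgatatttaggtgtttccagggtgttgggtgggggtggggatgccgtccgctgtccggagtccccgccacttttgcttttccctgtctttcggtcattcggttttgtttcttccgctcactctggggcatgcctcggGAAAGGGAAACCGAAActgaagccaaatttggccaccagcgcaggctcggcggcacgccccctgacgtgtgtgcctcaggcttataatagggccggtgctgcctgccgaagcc
IFI44L, chr1:78620198-78620447, plus strand: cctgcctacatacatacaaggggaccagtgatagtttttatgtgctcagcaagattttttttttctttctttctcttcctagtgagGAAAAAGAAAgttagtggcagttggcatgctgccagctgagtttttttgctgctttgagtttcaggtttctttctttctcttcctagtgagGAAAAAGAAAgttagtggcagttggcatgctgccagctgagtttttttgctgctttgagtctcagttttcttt
IFITM3, chr11:320861-321110, minus strand: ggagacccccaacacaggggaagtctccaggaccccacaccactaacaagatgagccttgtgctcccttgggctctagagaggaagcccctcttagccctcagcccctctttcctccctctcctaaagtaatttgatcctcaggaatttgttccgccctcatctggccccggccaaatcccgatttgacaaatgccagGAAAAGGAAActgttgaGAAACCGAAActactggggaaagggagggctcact
IRF9, chr14:24161015-24161264, plus strand: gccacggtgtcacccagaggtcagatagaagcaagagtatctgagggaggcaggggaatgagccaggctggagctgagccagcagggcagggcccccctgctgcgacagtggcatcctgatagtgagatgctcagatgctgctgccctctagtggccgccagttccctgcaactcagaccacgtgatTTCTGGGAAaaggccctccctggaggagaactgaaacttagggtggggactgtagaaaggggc
OAS3, DDX60, IFI44L and IFITM3 each hold 2 response element cores, those of ISG15 overlap each other, DDX60 also holds 1 gamma-activated site, and IRF9 holds 1 gamma-activated site and no core in these bases.

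The promoter table matched 36 of the 45 genes, and IFIT2, IFITM2, IRF7, MX2, OAS2, OASL, DHX58, USP18 and TRIM22 were not matched. A response element core was present upstream of 22 of the 36 (61.1%), beside 3.71% of the 27305 genes in the table and 3.42% of its 11828 tested genes. A gamma-activated site was present in 11 of 36 (30.6%), beside 8.09% and 7.66%. Among genes that fell in the BRG1 knockout, 15 of 24 matched genes held a core, and of those that rose there, 1 of 3 did (IFITM3). Of those that rose in the BRM knockout, 8 of 12 held a core, of those that fell there 1 of 4 did (EPSTI1), and of those that did not pass the test there, 13 of 20 did. A match of these letters is a description of the sequence, not a binding site.

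Loss of BRG1 went with lower levels of most of the list. Of the 45 genes, 29 fell (64.4%) and 4 rose (8.89%), beside 21.9% and 21.6% of all 18205 genes tested (43.5% in either direction), and 12 did not pass the test (edgeR's quasi-likelihood method, threshold 0.05 on the adjusted p). The median log2 fold change of the list was -1.43, beside -0.01 over all genes tested. The 8 largest falls that met the naming rule were those of CMPK2, RSAD2, OAS3, DDX60, OAS1, OAS2, XAF1 and MX2, with log2 fold changes from -5.25 to -3.11. The genes that rose were the viral entry inhibitors IFITM2 and IFITM3 and the ISGF3 subunits IRF9 and STAT2. In 31 genes every BRG1 knockout library lay below every parental library and in 5 every one lay above, beside 27.1% and 26.1% of all genes tested. Without BRG1 knockout replicate 1, IFIT2, MX1 and TRIM22 also fell, with changes of -1.37, -1.97 and -4.36 (adjusted p = 0.00373, 0.0297 and 0.0147), and the calls of IRF9 and STAT2 were lost. Without BRM knockout replicate 2, which enters through the shared spread, IFI6 rose by 1.07 (adjusted p = 0.0138).

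Loss of BRM went with higher levels of a smaller number of the genes, and most of the list did not pass the test. Of the 45, 14 rose (31.1%) and 4 fell (8.89%), beside 21.0% and 16.4% of all genes tested (37.4% in either direction), and 27 did not pass the test. The median log2 fold change was 0.50, beside 0.09 over all genes. MX1 and IFI6 rose most, followed by IFI44L, IRF9, OAS1 and MX2, and the 4 that fell were XAF1, EPSTI1, UBE2L6 and IRF1. The knockout libraries lay apart from the parental ones in 16 of the 45 genes above and 6 of the 45 below, beside 32.1% and 26.1% of all genes. By this measure the share above was near that of all genes. The count that rose moved with the libraries used: it was 11 without parental replicate 2, without parental replicate 3 or without BRM knockout replicate 1, and 18 without BRM knockout replicate 2. The count over all genes moved too. In the same order it was 2457 of 18772, 2469 of 18764, 2656 of 18772 and 3239 of 18806, beside 3814 of 18205 with all libraries. Without BRM knockout replicate 2, IFI27, IFIT5, HERC6 and PARP9 rose by 1.95, 0.54, 0.68 and 0.59 (adjusted p = 0.0294, 0.0411, 0.0395 and 0.0417). Without parental replicate 1, IFI35, IFITM1, IFITM3 and ISG20 rose by 0.93, 2.15, 0.78 and 1.17 (adjusted p = 0.0201, 0.0195, 0.0372 and 0.0232). Both knockouts were compared with the same 3 parental libraries, so their values are given side by side and not as independent results.

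**Figure D1:**
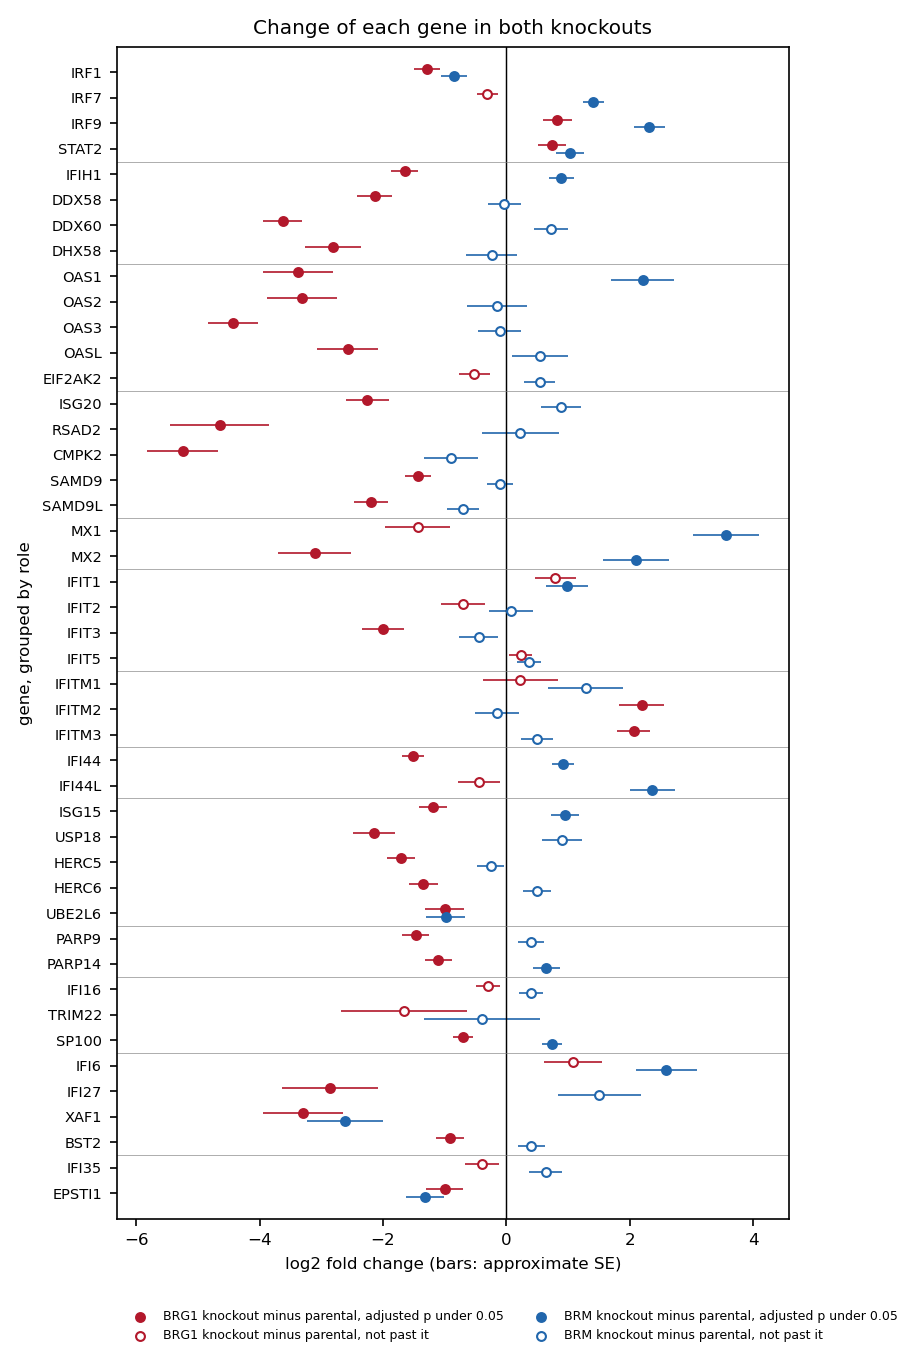
Log2 fold change of each of the 45 genes (y axis, grouped by role) in the BRG1 knockout (red) and the BRM knockout (blue) against the same 3 parental libraries, with bars for the approximate standard error. Filled points passed the test at an adjusted p of 0.05, which was 33 genes in the BRG1 knockout and 18 in the BRM knockout, with most filled red points left of 0 and most filled blue points right of it.

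Within each genotype the libraries differed along the whole list. The median log2 ratio of the 45 genes to the parental mean (0.1 CPM added) was 0.18, -0.27 and -0.01 in parental replicates 1 to 3, -1.01, -1.49 and -1.60 in the BRG1 knockout, and 0.64, 0.13 and 0.67 in the BRM knockout. BRM knockout replicate 2 was the lowest of its group for 38 of 45 genes, parental replicate 2 for 34 and BRG1 knockout replicate 3 for 29, while BRG1 knockout replicate 1 was the highest for 36. Each median of the BRG1 knockout lay below the lowest parental median. The lowest BRM knockout median lay below that of parental replicate 1.

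**Figure D2:**
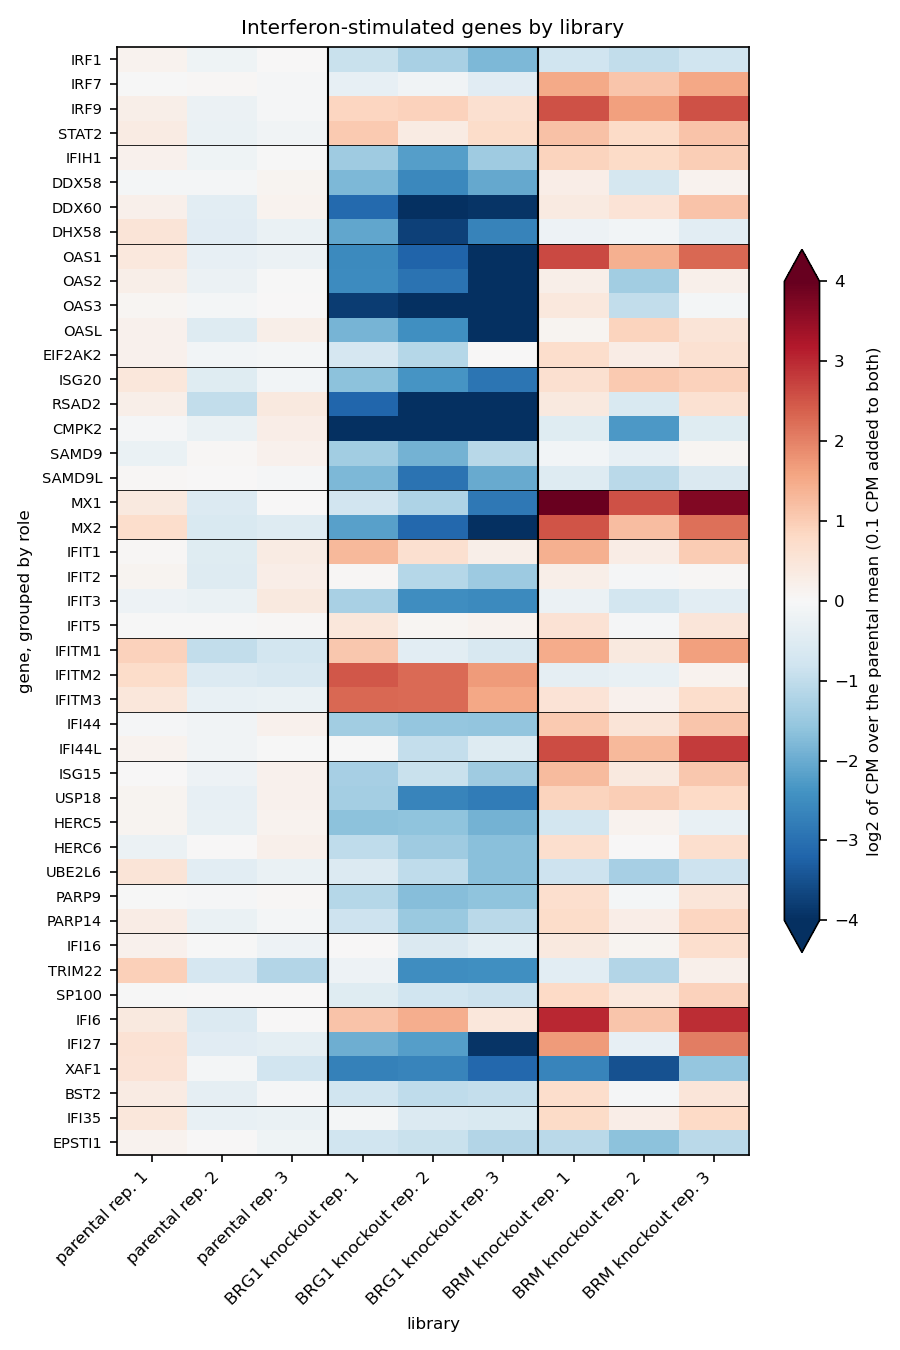
Log2 ratio of each gene's CPM to the parental mean (color, 0.1 CPM added to both, color range cut at 4 either way) for the 45 genes (rows, grouped by role) in the 9 libraries (columns). The BRG1 knockout columns are mostly blue, with red in all 3 for IRF9, STAT2, IFIT1, IFITM2, IFITM3 and IFI6. IFIT5 is also red in all 3, though pale (0.445, 0.08 and 0.136). The column of BRM knockout replicate 2 is paler than its group in the genes that rose.

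The transcription factors did not move together. IRF1, an activator of both interferon and its target genes (chr5:132481609-132490798), stood at 82.4, 65.6 and 74.7 CPM in the parental libraries, at 40.1, 29.99 and 21.1 in the BRG1 knockout and at 42.4, 37.6 and 42.9 in the BRM knockout. Both knockouts lay below every parental library, and IRF1 fell, with changes of -1.29 ± 0.21 (log2 fold change ± approximate SE, n = 3 per group, edgeR adjusted p = 0.000723) with BRG1 loss and -0.86 ± 0.21 (adjusted p = 0.00907) with BRM loss. IRF7, the factor that amplifies type I interferon production (chr11:612553-615999), measured 12.5, 13.1 and 12.2 CPM in parental cells, 10.03, 11.3 and 9.21 in the BRG1 knockout and 36.1, 27.1 and 37.2 in the BRM knockout. Its BRM knockout libraries lay above all others, a rise of 1.41 ± 0.17 (adjusted p = 0.000259), while the BRG1 knockout difference of -0.31 ± 0.17 did not pass the test (adjusted p = 0.167). With reads of coding transcripts only, chosen after seeing the data, IRF7 fell by 0.75 (adjusted p = 0.0144) with BRG1 loss.

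IRF9 supplies the DNA contact of ISGF3 (chr14:24161053-24166565). Its level was 30.7, 21.9 and 24.9 CPM in parental cells, 47.4, 48.99 and 40.5 in the BRG1 knockout and 152, 81.2 and 153 in the BRM knockout, with no overlap between the 3 genotypes. It rose by 2.32 ± 0.25 (adjusted p = 0.000146) with BRM loss and by 0.82 ± 0.24 (adjusted p = 0.0161) with BRG1 loss. The BRG1 call was lost in 5 of the alternative fits, those without parental replicate 2 (0.71, adjusted p = 0.0679), parental replicate 3 (0.79, adjusted p = 0.056), BRG1 knockout replicate 1 (0.73, adjusted p = 0.0604) and BRG1 knockout replicate 2 (0.70, adjusted p = 0.058), and the fit with an offset for effective transcript length (0.67, adjusted p = 0.0526). IRF9 shares 1838 of its 3794 exon bases with AL136295.5, an annotated protein-coding gene on the same strand that held 296, 293 and 821 reads in the parental, BRG1 knockout and BRM knockout groups, and how the reads divide between the pair is an estimate.

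STAT2, a partner of IRF9 (chr12:56341597-56360155), came to 47.97, 31.4 and 34.4 CPM in parental cells, 79.2, 47.3 and 63.3 in the BRG1 knockout and 84.9, 63.95 and 84.5 in the BRM knockout. The lowest BRG1 knockout library lay just under the highest parental one, and the BRM knockout lay above all 3 parental libraries. The rises were 0.74 ± 0.22 (adjusted p = 0.0208) and 1.04 ± 0.22 (adjusted p = 0.00475). Part of the reads was assigned to STAT2-207, a processed transcript with no coding sequence, at 6.54 ± 2.09 TPM (transcript share corrected for length; SD, n = 3) in parental cells, 14.1 ± 4.65 in the BRG1 knockout and 15.01 ± 2.96 in the BRM knockout. The main coding transcript, STAT2-201, was estimated at 7.81 ± 0.07, 7.09 ± 3.94 and 11.2 ± 2.43 TPM, and all 3 coding transcripts together at 11.4 ± 1.17, 14.1 ± 8.64 and 20.97 ± 3.11. With reads of coding transcripts only, a setting chosen after seeing the data, the log2 differences were 0.13 (adjusted p = 0.789) and 0.76 (adjusted p = 0.116), and neither passed the test. The BRG1 call was also lost without parental replicate 2 (0.62, adjusted p = 0.0855), parental replicate 3 (0.67, adjusted p = 0.079) or BRG1 knockout replicate 1 (0.48, adjusted p = 0.122).

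Between the knockouts, IRF7 and IRF9 were lower in the BRG1 knockout, with log2 differences of -1.72 and -1.497 (adjusted p = 2.37e-05 and 0.000491). IRF1 and STAT2 differed by -0.43 and -0.30 and did not pass the test, but without BRG1 knockout replicate 1 the difference of IRF1 was -0.65 (adjusted p = 0.0258).

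**Figure D3:**
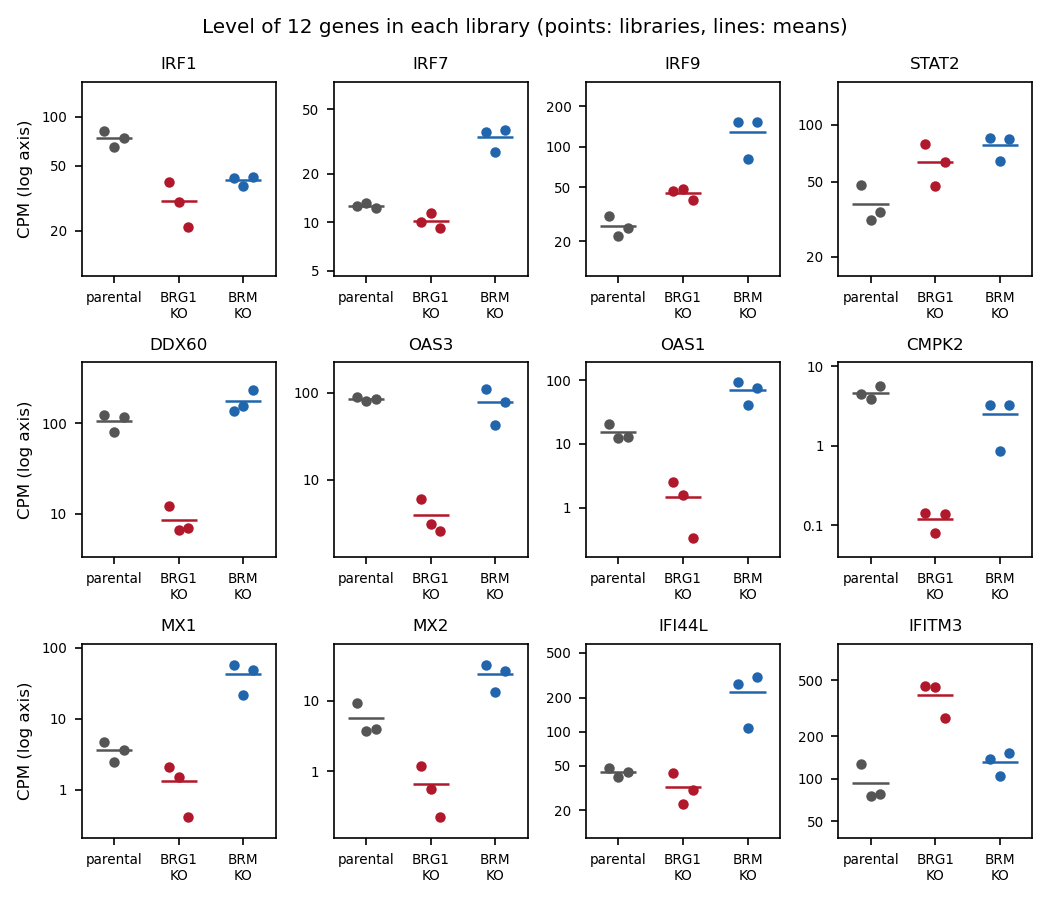
CPM (log axis, range set per gene) of 12 genes in each library, with points for libraries in replicate order and lines for group means. OAS3, DDX60, OAS1, CMPK2 and MX2 are below all parental points in the BRG1 knockout, IRF7, IRF9, OAS1, MX1, MX2 and IFI44L are above them in the BRM knockout, and IFITM3 is above them in the BRG1 knockout.

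The RNA sensors all fell with BRG1 loss. DDX60, a helicase grouped here with the RNA sensors (chr4:168216293-168318807), had 122, 80.1 and 118 CPM in parental cells, 12.3, 6.603 and 7.0 in the BRG1 knockout and 138, 155 and 235 in the BRM knockout. The BRG1 knockout lay far below both other genotypes, a log2 change of -3.63 ± 0.31 against parental cells (adjusted p = 1.11e-05), and the BRM knockout lay above all parental libraries without passing the test (0.72 ± 0.28, adjusted p = 0.064). DDX58, or RIG-I, which recognises viral RNA by its uncapped triphosphate end (chr9:32455705-32526324), measured 19.2, 19.2 and 21.9 CPM, then 5.68, 3.26 and 4.81 in the BRG1 knockout and 24.2, 12.3 and 22.4 in the BRM knockout. It fell by 2.13 ± 0.28 with BRG1 loss (adjusted p = 0.000178), while the BRM difference was -0.04 ± 0.27 (adjusted p = 0.931) and its replicate 2 alone lay below the parental range.

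IFIH1 encodes MDA5, the sensor of long double-stranded RNA (chr2:162267079-162318703). The parental libraries held 34.4, 26.9 and 30.5 CPM, with 11.2, 6.55 and 11.4 in the BRG1 knockout and 57.02, 52.1 and 61.3 in the BRM knockout. The genotypes did not overlap: IFIH1 fell by 1.65 ± 0.21 (adjusted p = 0.00016) with BRG1 loss and rose by 0.89 ± 0.21 (adjusted p = 0.00693) with BRM loss. DHX58 encodes LGP2, which regulates RIG-I and MDA5 and lacks their signalling domain (chr17:42101404-42112733). It had 7.89, 3.94 and 4.46 CPM, then 1.22, 0.316 and 0.775 with BRG1 loss and 4.69, 5.06 and 4.02 with BRM loss. The log2 change with BRG1 loss was -2.81 ± 0.45 (adjusted p = 0.000595), and the BRM knockout values lay within the parental range (-0.24 ± 0.41, adjusted p = 0.673). In the direct comparison each of these 4 sensors was lower in the BRG1 than in the BRM knockout, with log2 differences from -4.35 to -2.10.

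The oligoadenylate synthetases OAS1, OAS2 and OAS3 make the messenger that activates RNase L, and all 3 fell with BRG1 loss. OAS3 (chr12:112938352-112973249) measured 88.4, 79.1 and 83.8 CPM in parental cells, 5.996, 3.08 and 2.54 in the BRG1 knockout and 111, 42.6 and 78.8 in the BRM knockout. It fell by 4.44 ± 0.41 (adjusted p = 2.27e-05) with BRG1 loss, and the BRM knockout libraries lay on both sides of the parental range (-0.11 ± 0.35, adjusted p = 0.825). OAS1, its neighbour on the chromosome (chr12:112906777-112933222), had 20.4, 12.1 and 12.97 CPM in parental cells, 2.501, 1.55 and 0.332 in the BRG1 knockout and 94.1, 40.5 and 75.5 in the BRM knockout. OAS1 fell by 3.37 ± 0.57 (adjusted p = 0.0011) and rose by 2.21 ± 0.51 (adjusted p = 0.00788), with no overlap among the 3 genotypes, and its BRM call was lost when low-count genes were not filtered (2.12, adjusted p = 0.0611).

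OAS2 (chr12:112978395-113011723) was scarcer, at 5.31, 3.81 and 4.44 CPM in parental cells, 0.7104, 0.4999 and 0.138 in the BRG1 knockout and 5.28, 1.66 and 5.24 in the BRM knockout. Its change with BRG1 loss was -3.32 ± 0.57 (adjusted p = 0.000885), and the BRM difference was -0.15 ± 0.49 with replicate 2 alone below the parental range. OASL, a family member without synthetase activity, fell by 2.58 ± 0.49 (adjusted p = 0.00203) with BRG1 loss and differed by 0.54 ± 0.45 (adjusted p = 0.379) with BRM loss. EIF2AK2 encodes PKR, the kinase that stops translation on double-stranded RNA, and did not pass the test in either knockout (-0.52 ± 0.25 and 0.54 ± 0.25). BRG1 knockout replicate 3 stood apart for PKR at 142 CPM beside 87.9 and 63.4, and without it EIF2AK2 fell by 0.96 (adjusted p = 0.00138). With all libraries and an offset for effective transcript length its change was -1.11 (adjusted p = 0.0148). In all, 3 alternative fits called EIF2AK2 lower with BRG1 loss. With BRM loss every knockout library lay above the parental range, and 3 alternative fits called EIF2AK2 higher (0.45 to 0.53, adjusted p = 0.0221 to 0.0369). In TPM, which allows levels of different genes to be compared, OAS1 over OAS3 was 0.876, 0.556 and 0.543 in parental cells and 3.11, 3.76 and 3.87 in the BRM knockout. In the BRG1 knockout that ratio was 1.38, 1.77 and 0.261, so its libraries did not share a value. These ratios were chosen after their values were seen.

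The enzymes that act on nucleotides and nucleic acids all fell with BRG1 loss, and none of the 5 passed the test with BRM loss. CMPK2, a mitochondrial nucleotide kinase (chr2:6840570-6866635), measured 4.51, 3.84 and 5.604 CPM in parental cells, 0.142, 0.0789 and 0.138 in the BRG1 knockout and 3.299, 0.873 and 3.29 in the BRM knockout. RSAD2, or viperin, its divergent neighbour that turns CTP into a chain terminator of viral RNA synthesis (chr2:6865806-6898239), had 6.14, 2.58 and 6.75 CPM in the parental libraries, 0.483, 0.132 and 0 in the BRG1 knockout and 6.81, 3.31 and 7.92 in the BRM knockout. Both were near 0 in the BRG1 knockout, with 13 reads of CMPK2 and 22 of RSAD2 over its 3 libraries beside 529 and 582 in the parental ones, and a library with 0 reads allows up to 3. CMPK2 fell by 5.25 ± 0.58 (adjusted p = 5.41e-05) and RSAD2 fell by 4.65 ± 0.80 (adjusted p = 0.00107). All 3 BRM knockout values of CMPK2 lay below the parental range and those of RSAD2 overlapped it, with differences of -0.90 ± 0.44 (adjusted p = 0.128) and 0.22 ± 0.62 (adjusted p = 0.805).

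ISG20, an RNA exonuclease, fell by 2.25 ± 0.34 (adjusted p = 0.000435) with BRG1 loss. SAMD9 and SAMD9L, paralogs that restrict poxviruses, fell, with changes of -1.43 ± 0.21 and -2.200 ± 0.28 (adjusted p = 0.000364 and 0.000129). In the BRM knockout ISG20 differed by 0.89 ± 0.32 (adjusted p = 0.0504) and SAMD9L by -0.70 ± 0.26 (adjusted p = 0.0568), and these passed the test in 10 and 12 of the alternative fits. SAMD9 differed by -0.11 ± 0.21 (adjusted p = 0.719). All 5 genes were lower in the BRG1 than in the BRM knockout, with log2 differences from -4.87 to -1.32.

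MX1 and MX2 encode dynamin-like GTPases that trap incoming viral nucleocapsids, and both rose with BRM loss. MX1 (chr21:41420304-41459214) had 4.79, 2.48 and 3.65 CPM in parental cells, 2.103, 1.5 and 0.415 in the BRG1 knockout and 57.7, 21.6 and 49.04 in the BRM knockout, the largest rise of the 45 genes in that comparison at 3.56 ± 0.53 (adjusted p = 0.000848). All 3 BRG1 knockout values lay below the parental ones, and the difference of -1.44 ± 0.53 had an adjusted p of 0.0509, which passed the threshold in 8 of the alternative fits. MX2 (chr21:41361943-41409390) had 9.397, 3.68 and 3.98 CPM in the parental libraries, 1.19, 0.552 and 0.221 in the BRG1 knockout and 32.9, 13.4 and 26.6 in the BRM knockout. It fell by 3.11 ± 0.60 (adjusted p = 0.00214) with BRG1 loss and rose by 2.100 ± 0.53 (adjusted p = 0.0111) with BRM loss. Parental replicate 1 held more MX2 than the other two parental libraries, and the BRM call was lost without parental replicate 2 (1.86, adjusted p = 0.0522) or parental replicate 3 (1.90, adjusted p = 0.0546), and when low-count genes were not filtered (2.01, adjusted p = 0.0681). The direct comparison gave differences of -4.996 ± 0.58 for MX1 and -5.21 ± 0.63 for MX2 (adjusted p = 9.01e-05 and 0.000109).

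IFI44 and IFI44L are adjacent paralogs on chromosome 1. IFI44L (chr1:78619922-78646145) measured 48.1, 39.4 and 43.5 CPM in parental cells, 43.2, 22.6 and 30.6 in the BRG1 knockout and 264, 108 and 303 in the BRM knockout. Its BRM knockout libraries lay above all others, a rise of 2.37 ± 0.36 (adjusted p = 0.000819), and the BRG1 knockout overlapped the parental range (-0.44 ± 0.34, adjusted p = 0.324). IFI44 fell by 1.52 ± 0.18 (adjusted p = 0.000103) with BRG1 loss and rose by 0.92 ± 0.18 (adjusted p = 0.00275) with BRM loss. A difference between the changes of the paralogs was not tested.

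The IFIT proteins bind viral RNA ends, and 1 of 4 fell with BRG1 loss. IFIT3, which stabilises the IFIT1 complex, fell by 2.001 ± 0.34 (adjusted p = 0.000834), from 30.2 to 47.9 CPM in parental libraries to 6.197 to 14.8. IFIT1 was found at 18.5, 12.6 and 22.4 CPM in parental cells, 43.6, 27.8 and 21.1 in the BRG1 knockout and 47.8, 21.6 and 35.8 in the BRM knockout. It overlapped the parental range in both knockouts, did not pass the test with BRG1 loss (0.79 ± 0.34, adjusted p = 0.0801) and just passed it with BRM loss (0.98 ± 0.34, adjusted p = 0.0424), a call lost in 11 alternative fits with values from 0.60 to 1.18. Among them were the fits without any 1 of the 3 parental libraries, without BRG1 knockout replicate 2 and without BRM knockout replicate 1 or 3. In TPM, IFIT1 over IFIT3 was 0.783, 0.543 and 0.634 in parental cells, 3.97, 5.62 and 4.57 in the BRG1 knockout and 2.10, 1.34 and 1.80 in the BRM knockout, also chosen after seeing the values. The neighbours IFIT2 and IFIT5 did not pass the test in either knockout (-0.71 ± 0.36 and 0.23 ± 0.19 with BRG1 loss, 0.08 ± 0.36 and 0.37 ± 0.19 with BRM loss).

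The IFITM proteins sit in membranes and block fusion of entering viruses, and 2 of 3 rose in the BRG1 knockout. IFITM3 (chr11:319669-327537) measured 127, 75.8 and 78.1 CPM in parental cells, 456, 448 and 272 in the BRG1 knockout and 137, 105 and 153 in the BRM knockout. Its near-identical paralog IFITM2 (chr11:307631-315272) had 22.7, 9.26 and 8.71 CPM in the parental libraries, 76.04, 65.01 and 44.4 in the BRG1 knockout and 10.4, 11.1 and 15.01 in the BRM knockout. In both genes the BRG1 knockout libraries lay above all others, with rises of 2.07 ± 0.27 (adjusted p = 0.000159) and 2.19 ± 0.37 (adjusted p = 0.000885). With BRM loss the differences were 0.49 ± 0.26 and -0.15 ± 0.36, and neither passed the test. IFITM1 did not pass it in any comparison (0.22 ± 0.61 with BRG1 loss, 1.28 ± 0.61 with BRM loss and -1.06 ± 0.61 between the knockouts), with parental replicate 1 at 18.3 CPM beside 4.83 and 5.68. Without BRG1 knockout replicate 1 the difference between the knockouts was -1.80 (adjusted p = 0.0415). Because the 3 paralogs share sequence and IFITM1 and IFITM2 share 351 exon bases, the division of reads among them is uncertain. Their sum was 168, 89.9 and 92.5 CPM in parental cells, 552, 520.2 and 322 in the BRG1 knockout and 175, 128 and 199 in the BRM knockout, so the sum too lay higher in every BRG1 knockout library. IFITM2 and IFITM3 were the only genes of the 45 that passed the test as higher in the BRG1 than in the BRM knockout (2.34 ± 0.37 and 1.57 ± 0.26).

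ISG15 and the genes listed with it, UBE2L6, HERC5, HERC6 and USP18, all fell with BRG1 loss. ISG15, the ubiquitin-like modifier (chr1:1001138-1014540), had 88.6, 75.9 and 98.3 CPM in parental cells, 35.1, 47.5 and 32.9 in the BRG1 knockout and 208, 116 and 183 in the BRM knockout. The genotypes did not overlap, with a change of -1.18 ± 0.23 (adjusted p = 0.00186) in the BRG1 knockout and a rise in the BRM knockout of 0.95 ± 0.23 (adjusted p = 0.00766), which was lost without BRM knockout replicate 1 (0.68, adjusted p = 0.0598). UBE2L6, the enzyme that carries ISG15 to the ligase (chr11:57551656-57568284), stood at 96.7, 50.5 and 56.9 CPM in the parental libraries, 47, 33.7 and 21.1 in the BRG1 knockout and 37.9, 27.1 and 38.2 in the BRM knockout. It was lower in both knockouts, with changes of -1.002 ± 0.31 (adjusted p = 0.0244) and -0.98 ± 0.31 (adjusted p = 0.0303), and parental replicate 1 held the highest value. Without parental replicate 1 the differences were -0.66 (adjusted p = 0.0984) and -0.64 (adjusted p = 0.115) and neither passed the test. The call in the BRG1 knockout was also lost without its replicate 2 (-1.06, adjusted p = 0.052), and that in the BRM knockout without its replicate 2 (-0.84, adjusted p = 0.103) or replicate 3 (-1.06, adjusted p = 0.0635).

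HERC5, the ligase for ISG15, and its relative HERC6 fell, with changes of -1.71 ± 0.22 and -1.35 ± 0.24 with BRG1 loss (adjusted p = 0.000164 and 0.00105). USP18, which removes ISG15 and dampens signalling at the type I receptor, fell by 2.15 ± 0.34 (adjusted p = 0.000576). With BRM loss HERC5, HERC6 and USP18 differed by -0.26 ± 0.22, 0.50 ± 0.23 and 0.89 ± 0.32 and did not pass the test. USP18 lay above the parental range in all 3 BRM knockout libraries and passed the threshold in 7 alternative fits.

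Of the remaining 11 genes, PARP14 and SP100 changed in opposite directions in the knockouts, and XAF1 and EPSTI1 fell in both. PARP9 and PARP14, ADP-ribosylation enzymes, fell, with changes of -1.47 ± 0.22 and -1.102 ± 0.22 with BRG1 loss (adjusted p = 0.000356 and 0.00246). PARP14 rose by 0.65 ± 0.22 with BRM loss (adjusted p = 0.039), a call lost in 8 alternative fits with values from 0.52 to 0.61, among them those without parental replicate 2 or 3, BRG1 knockout replicate 1 or 3, or BRM knockout replicate 1 or 3. PARP9 differed by 0.40 ± 0.21. SP100, a nuclear body protein, fell by 0.70 ± 0.16 (adjusted p = 0.00549) and rose by 0.73 ± 0.16 (adjusted p = 0.00554), with no overlap between genotypes. IFI16, a DNA sensor, and TRIM22, an antiviral ubiquitin ligase with at most 1.26 CPM in a library, did not pass the test in either knockout (-0.30 ± 0.20 and -1.66 ± 1.02 with BRG1 loss, 0.40 ± 0.20 and -0.39 ± 0.94 with BRM loss). IFI35 did not pass it either (-0.39 ± 0.27 and 0.64 ± 0.27).

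IFI6, a mitochondrial and endoplasmic reticulum protein (chr1:27666061-27672218), measured 36.3, 18.9 and 27.9 CPM in parental cells, 61.3, 76.1 and 37.7 in the BRG1 knockout and 225, 59.7 and 217 in the BRM knockout. It rose by 2.59 ± 0.49 (adjusted p = 0.00285) with BRM loss, and although every BRG1 knockout library also lay above the parental range, the difference of 1.08 ± 0.47 did not pass the test (adjusted p = 0.0879). IFI27 had 2.79, 1.305 and 1.36 CPM in the parental libraries, 0.398, 0.316 and 0.0277 in the BRG1 knockout and 6.195, 1.42 and 7.84 in the BRM knockout. It fell by 2.86 ± 0.78 (adjusted p = 0.0129) with BRG1 loss, while BRM knockout replicate 2 stood at the parental level and the other two above it (1.51 ± 0.67, adjusted p = 0.0997). The BRG1 call of IFI27 was lost when parental replicate 1 and BRG1 knockout replicate 3 were both left out (-1.98, adjusted p = 0.0541). BST2, or tetherin, which holds budding virus at the cell surface, fell by 0.91 ± 0.22 (adjusted p = 0.00637) with BRG1 loss and differed by 0.41 ± 0.22 with BRM loss.

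XAF1, a pro-apoptotic partner of the caspase inhibitor XIAP (chr17:6755447-6775647), had 3.01, 1.91 and 1.15 CPM in parental cells, 0.227, 0.237 and 0.138 in the BRG1 knockout and 0.241, 0.0903 and 0.633 in the BRM knockout. All 6 knockout libraries lay below the parental range, with changes of -3.303 ± 0.65 (adjusted p = 0.00205) and -2.61 ± 0.61 (adjusted p = 0.00715). EPSTI1 stood at 2.61, 2.37 and 2.08 CPM in the parental libraries, 1.31, 1.21 and 0.996 in the BRG1 knockout and 1.07, 0.693 and 1.06 in the BRM knockout (chr13:42886388-42992271). It too was lower in both knockouts, with changes of -1.004 ± 0.30 (adjusted p = 0.0207) and -1.31 ± 0.31 (adjusted p = 0.00707), and the BRG1 call was lost without parental replicate 1 (-0.92, adjusted p = 0.0571) or parental replicate 2 (-0.999, adjusted p = 0.057). With an offset for effective transcript length EPSTI1 differed by -0.25 (adjusted p = 0.617) and -0.91 (adjusted p = 0.0886), and neither passed the test.

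Set directly against each other, the knockouts differed in 35 of the 45 genes. In the BRG1 knockout 33 genes were lower and 2 higher than in the BRM knockout (73.3% and 4.44%), beside 23.8% and 21.6% of all genes tested (45.3% in either direction), and 10 did not pass the test. The median log2 difference was -1.55, beside 0.00 over all genes, and in 32 genes every BRG1 knockout library lay below every BRM knockout library, beside 28.6% of all genes. OAS1, MX2, MX1, RSAD2, IFI27, CMPK2, DDX60 and OAS3 were the non-overlapping genes with the largest differences, from -5.58 ± 0.61 for OAS1 (adjusted p = 7.17e-05) to -4.32 ± 0.41 for OAS3 (adjusted p = 1.87e-05). The difference of IFI6 (-1.52 ± 0.47, adjusted p = 0.0242) was lost in 7 alternative fits, among them those without BRG1 knockout replicate 1 (-1.53, adjusted p = 0.0683), BRG1 knockout replicate 3 (-1.26, adjusted p = 0.0959), BRM knockout replicate 1 (-1.23, adjusted p = 0.0869) and BRM knockout replicate 3 (-1.29, adjusted p = 0.0825). That of IFI16 (-0.70 ± 0.20, adjusted p = 0.0149) was lost without BRM knockout replicate 3 (-0.55, adjusted p = 0.0722) and with an offset for effective transcript length (-0.49, adjusted p = 0.07). Without BRG1 knockout replicate 1, IFIT2 and TRIM22 were also lower in the BRG1 knockout (-1.36 and -3.88, adjusted p = 0.00324 and 0.0225).

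Levels per transcript length showed where the list's RNA lay. The median of the 45 genes' mean TPM was 15.2 in parental cells, 5.14 in the BRG1 knockout and 24.6 in the BRM knockout, and 1, 9 and 3 genes were under 1 TPM. The summed TPM was 1985, 1455 and 1710 in parental libraries and 2101, 1744 and 1661 in the BRG1 knockout, and the summed CPM was 1942, 1491 and 1715 beside 1536, 1270.0 and 1123. The groups overlapped on both scales, although the BRG1 knockout had the lower mean in CPM and the higher mean in TPM. IFITM3 alone made up 905 of the mean TPM sum of 1836 in the BRG1 knockout, while ISG15 was the most abundant gene in parental cells (286 TPM) and in the BRM knockout (536 TPM), whose libraries summed to 3402, 2022 and 3372 TPM.

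Transcripts of the interferon genes themselves were at or near 0 in all genotypes. Of 21 interferon genes, 13 had 0 reads in all 9 libraries, which allows up to 3 reads or 0.00903 CPM over the series, and IFNE was the only one abundant enough to be tested. IFNE, which had 80 reads in all, did not pass the test in any comparison. IFNB1, which encodes interferon beta, had 1 read in parental cells, 0 in the BRG1 knockout and 3 in the BRM knockout. IFNL1, a type III interferon, had 16, 0 and 14 reads in the same order.

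Most receptor subunits rose with BRG1 loss. Of 9 receptor chains and kinases, 7 rose and 1 fell in the BRG1 knockout, beside 21.6% and 21.9% of all genes tested, and 4 rose and 1 fell in the BRM knockout, beside 21.0% and 16.4%. IFNAR1, the other type I receptor chain, was among the 7 (0.51 ± 0.17, adjusted p = 0.0331), and its call was lost in 12 alternative fits, among them those without any 1 parental library, BRG1 knockout replicate 1 or 3, or BRM knockout replicate 1 or 3. With an offset for effective transcript length its difference was -0.027 (adjusted p = 0.943). IFNAR2, a chain of the type I receptor, was present at 5.13, 2.43 and 2.67 CPM in parental cells, 17.6, 23.2 and 26.1 in the BRG1 knockout and 15.4, 14.2 and 15.1 in the BRM knockout. Both knockouts lay above all parental libraries, with rises of 2.71 ± 0.29 (adjusted p = 4.43e-05) and 2.14 ± 0.28 (adjusted p = 0.000394). IFNGR2, of the type II receptor, rose by 2.43 ± 0.22 and 1.27 ± 0.21 (adjusted p = 1.71e-05 and 0.00131), and IL10RB, the shared chain of the type III receptor, by 1.29 ± 0.19 and 1.05 ± 0.19 (adjusted p = 0.000355 and 0.00181).

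IFNLR1, the private chain of the type III receptor, went the other way, at 8.998, 6.89 and 7.27 CPM in parental cells, 1.82, 1.26 and 0.332 in the BRG1 knockout and 10.3, 11.5 and 8.45 in the BRM knockout. It fell by 2.76 ± 0.45 (adjusted p = 0.000672) with BRG1 loss and differed by 0.39 ± 0.41 (adjusted p = 0.482) with BRM loss. JAK2, a kinase of the type II receptor, differed in direction between the knockouts (0.58 ± 0.19, adjusted p = 0.0293, and -0.75 ± 0.19, adjusted p = 0.0113), and its BRG1 call was lost without any 1 parental library, without BRG1 knockout replicate 1 or 3 or without BRM knockout replicate 1 (0.31 to 0.59).

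**Figure D4:**
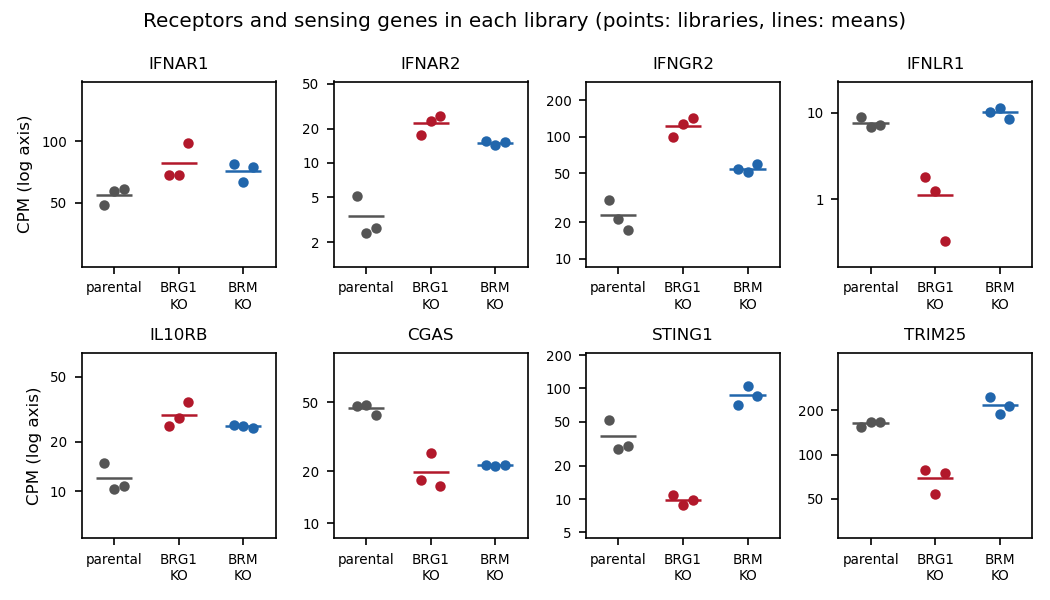
CPM (log axis, range set per gene) of receptor chains and sensing genes in each library, with points for libraries in replicate order and lines for group means. In the BRG1 knockout IFNAR2 and IFNGR2 lie above all parental points and IFNLR1, STING1, CGAS and TRIM25 below them, and STING1 lies above them in the BRM knockout.

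Sensing genes outside the list of 45 changed in both directions. Of 10 tested, 1 rose and 5 fell with BRG1 loss, beside 21.6% and 21.9% of all genes, and 3 rose and 4 fell with BRM loss, beside 21.0% and 16.4%. The gene that rose with BRG1 loss was MAVS, the adaptor of the RIG-I-like sensors (0.55 ± 0.19, adjusted p = 0.0368), a call lost without any 1 parental library, BRG1 knockout replicate 1 or 3, or BRM knockout replicate 1 or 3 (0.35 to 0.59). STING1, the adaptor of cytosolic DNA sensing, came to 51.96, 28.6 and 29.9 CPM in parental cells, 10.8, 8.84 and 9.904 in the BRG1 knockout and 71.3, 104 and 85.2 in the BRM knockout. No genotype overlapped another, and STING1 fell by 1.902 ± 0.25 (adjusted p = 0.000155) with BRG1 loss and rose by 1.24 ± 0.24 (adjusted p = 0.00251) with BRM loss. CGAS, the enzyme that makes the STING ligand, fell in both, with changes of -1.21 ± 0.18 and -1.09 ± 0.18 (adjusted p = 0.000315 and 0.00099). TRIM25, a ubiquitin ligase of the RIG-I pathway, and IKBKE, a kinase acting on IRF factors, fell, with changes of -1.24 ± 0.17 and -1.14 ± 0.24 with BRG1 loss (adjusted p = 0.000252 and 0.00333). With BRM loss MAVS and the adaptor TICAM1 rose by 0.81 ± 0.19 and 0.81 ± 0.20 (adjusted p = 0.00756 and 0.00853).

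Negative regulators of the response include the SOCS family and phosphatases. Of 6 such feedback genes, 1 rose and 0 fell with BRG1 loss, beside 21.6% and 21.9% of all genes tested. With BRM loss 2 rose and 1 fell, beside 21.0% and 16.4%. SOCS3, a cytokine signalling inhibitor, rose by 1.22 ± 0.17 and 0.53 ± 0.17 (adjusted p = 0.000253 and 0.0307). CISH, of the same family, rose by 1.93 ± 0.30 with BRM loss (adjusted p = 0.000821), and the phosphatase PTPN2 fell by 0.51 ± 0.18 (adjusted p = 0.0426). With BRM loss the call of SOCS3 was lost without parental replicate 2 or 3 or BRM knockout replicate 1 or 2 (0.42 to 0.53), and that of PTPN2 without parental replicate 2 or 3 or any 1 BRM knockout library (-0.64 to -0.36) or with the replicate block (-0.50, adjusted p = 0.0654).

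Many genes of chemokines and guanylate-binding proteins respond mainly to type II interferon. Of 13 chemokine, guanylate-binding protein and related genes, 9 were tested, of which 1 rose and 6 fell with BRG1 loss, beside 21.6% and 21.9% of all genes, and 1 rose and 3 fell with BRM loss, beside 21.0% and 16.4%. IDO1, the tryptophan-degrading enzyme, measured 15.7, 2.61 and 4.15 CPM in parental cells, 0.227, 0 and 0 in the BRG1 knockout and 3.49, 4.64 and 6.099 in the BRM knockout, a change of -6.596 ± 1.06 (adjusted p = 0.000808) with BRG1 loss. GBP4 fell in both, with changes of -3.75 ± 0.61 and -3.899 ± 0.62 (adjusted p = 0.000706 and 0.000958), and APOL6 fell by 1.93 ± 0.26 (adjusted p = 2e-04) with BRG1 loss. GBP2 was the member that rose with BRG1 loss, from 15.5, 2.79 and 3.72 to 86.3, 32.6 and 33.9 CPM (2.802 ± 0.68, adjusted p = 0.00836). GBP1 fell by 0.88 ± 0.21 and GBP3 rose by 0.77 ± 0.23 with BRM loss (adjusted p = 0.0084 and 0.0211), and the GBP3 call was lost without parental replicate 2 or 3 or BRM knockout replicate 1 or 3 (0.65 to 0.73). Parental replicate 1 was the highest parental library for IDO1, GBP2 and GBP4. Without it GBP2 also rose with BRM loss, by 2.45 (adjusted p = 0.00607), and with low-count genes not filtered the BRG1 difference of GBP2 was 2.72 (adjusted p = 0.0548).

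Of 15 genes of class I antigen presentation, 1 rose and 6 fell with BRG1 loss, beside 21.6% and 21.9% of all genes tested. With BRM loss 2 rose and 3 fell, beside 21.0% and 16.4%. The immunoproteasome subunit PSMB9 fell in both knockouts, with changes of -2.36 ± 0.36 and -1.51 ± 0.34 (adjusted p = 0.00041 and 0.0062) as did the peptide transporter chain TAP2, with -1.21 ± 0.17 and -1.497 ± 0.17 (adjusted p = 0.000221 and 0.000181). TAP1, the other chain, fell by 1.58 ± 0.26 (adjusted p = 0.000762) with BRG1 loss, while B2M, the light chain of class I molecules, rose by 1.33 ± 0.21 (adjusted p = 0.000517). HLA-F and HLA-E rose by 1.501 ± 0.40 and 0.95 ± 0.26 with BRM loss (adjusted p = 0.0142 and 0.0143), and both calls were lost without parental replicate 2 (1.28 and 0.81) or parental replicate 3 (1.32 and 0.81). Without BRG1 knockout replicate 3, HLA-E also rose with BRG1 loss (0.65, adjusted p = 0.0326). No difference between this list and the 45 genes was tested.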

How the data were processed

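RNA-seq libraries of 3 parental, 3 BRG1 knockout and 3 BRM knockout H358 samples were used, grouped by the genotype in the labels. The authors quantified reads per transcript with Salmon (version not given in the sources used here), and hg38 and DESeq2 are also named, per the submitters' processing notes. The deposited tables give estimated counts, TPM and effective lengths for 203835 transcripts, with no record of the strand or bias settings in the file headers. The estimated counts were summed over the 203746 transcripts assigned to a GENCODE 29 gene and rounded. The 89 others held at most 0.0193% of a library.

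A fit of all 9 libraries in edgeR 4.0.16 (R 4.3.3; TMM, filterByExpr, robust quasi-likelihood test, two-sided, Benjamini-Hochberg over 18205 genes, threshold 0.05, 6 residual degrees of freedom) gave the 3 comparisons. The procedure was also run on simulated counts with far fewer changed genes than were called here. That run therefore cannot show its error rate in these data. Approximate SEs came from each log2 fold change and its F statistic. Pooled spread lets calls be made with 3 libraries a group (biological coefficient of variation 0.253). Replicates differed beyond sampling noise (chi-square per degree of freedom of at least 10.7). Alternatives used DESeq2 1.42.0, limma voom 3.58.1, other scaling, filters, left-out libraries and, added after seeing the data, coding transcripts only.

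The 45 genes and all lists were chosen with earlier results of these data known. Every gene is accounted for. Values per library are given for the 4 transcription factors, the 4 RNA sensors and, in each comparison and direction, up to 8 called genes with the largest change, a mean of 1 or more log2 CPM in whichever group was higher, and no overlap, and for some others chosen after their values were seen. Of each pathway list, up to 4 such called genes a comparison are named, plus IFNB1, CGAS and STING1, and 1 further gene that this rule names is not reported here.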

Additional observations from a re-analysis of the deposited data

How the results depend on the processing

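No gene of the 45 changed direction in a comparison where it was called, in any of the alternatives run. The count that rose with BRG1 loss was 4, and it ranged from 2 to 5 when 1 library was left out. It was 2 without parental replicate 2, parental replicate 3 or BRG1 knockout replicate 1, since the calls of IRF9 and STAT2 were lost. The count that fell with BRG1 loss was 27 to 32 with 1 library left out. With BRM loss 11 to 18 genes rose and 3 to 5 fell, and the direct comparison gave 2 higher and 31 to 36 lower. In these fits 18724 to 18884 genes were tested in all. Of them, 2946 to 4015 rose and 3150 to 5029 fell with BRG1 loss, and 2457 to 4033 rose and 2071 to 4181 fell with BRM loss. The direct comparison called 2897 to 4250 of all genes higher and 3583 to 4759 lower. With no filter on low counts 12 rose and 5 fell with BRM loss, with DESeq2 16 and 5, with limma voom 19 and 5, with the 6 samples of the comparison only 18 and 5, and with reads of coding transcripts only, added after seeing the data, 11 and 5. Over all genes, 3082 rose and 3307 fell of 31790 with no filter, and 3824 and 3513 of 21290 with DESeq2. With limma voom it was 4042 and 3118 of 18205. With the 6 samples it was 4137 and 4252 of 17425, and with coding transcripts 2675 and 2867 of 14035.

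Outside the 45, 3 differences changed sign where a call was made: IFNAR1 with BRG1 loss was -0.027 with the effective length offset, beside 0.51, and PSMB10, an immunoproteasome subunit, was -1.14 with BRG1 loss and -0.76 in the direct comparison with reads of coding transcripts only, beside 0.04 and 0.35.

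Replicate numbers were not used to pair the samples in the main fit. Same-numbered libraries correlated at -0.079 to 0.175 in their deviations from the group means, and differently numbered ones at -0.154 to 0.118. With so few libraries these values cannot decide whether same-numbered libraries were handled together. With the replicate block, 5 genes rose and 30 fell with BRG1 loss, 19 rose and 6 fell with BRM loss, and 2 were higher and 34 lower in the direct comparison. Of all 18205 genes, 3641 and 3845, 3622 and 2770, and 3606 and 4196 did so in the same order. The widest standard errors with BRG1 loss were those of TRIM22 (1.02), RSAD2 (0.80) and IFI27 (0.78).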
